A study of Mus musculus with 18 samples.

Results

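Endothelial cells keep blood fluid by displaying inhibitors of clotting on their surface and by releasing enzymes that dissolve fibrin, and they can switch to a clot-promoting state when injured. Described here are 9 genes of that balance in brain cortical endothelium of the mouse: the anticoagulant receptors thrombomodulin (Thbd) and endothelial protein C receptor (Procr), the cofactor protein S (Pros1) and tissue factor pathway inhibitor (Tfpi), the plasminogen activators of tissue type (Plat) and urokinase type (Plau), and the clot-promoting tissue factor (F3), von Willebrand factor (Vwf) and factor V (F5). They were picked by symbol, and all 9 had a row among the 21638 genes of the deposited table.

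In the protein C pathway, thrombin bound to thrombomodulin activates protein C held by the endothelial protein C receptor, and activated protein C with protein S degrades factor V. Tissue factor starts clotting when it meets factor VII, and tissue factor pathway inhibitor blocks that complex. Both plasminogen activators convert plasminogen to plasmin, which digests fibrin. Tissue-type plasminogen activator is also the drug given to dissolve clots in ischaemic stroke.

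The 18 libraries were ultra-low-input mRNA libraries of cells sorted as positive for CD31 and negative for CD41 and CD45, in 6 groups of 3. Wild-type mice had sham surgery or middle cerebral artery occlusion (MCAO), a model of ischaemic stroke, and the ipsilateral and contralateral sides were sequenced separately. The other 2 groups were the ipsilateral side of MCAO mice that carried Hdac2lox/lox or Ezh2lox/lox alleles with Cdh5CreERT2, a tamoxifen-induced recombinase under a promoter active in endothelial cells, and are labelled Hdac2 ECKO and Ezh2 ECKO (endothelial knockout). Every group, the wild-type ones included, is labelled with tamoxifen at 75 mg/kg, and cells were taken on day 7. The labels call the mice adult and give no strain or exact age. They do not say whether libraries with the same number on both sides came from 1 mouse, or that replicates are separate animals, so p-values measure the spread between these samples, which may be technical.

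Total counts ran from 25791401 to 57576255 per library. The 12 endothelial marker genes were all detected in every group, with summed levels of 8014 to 27653 CPM (a count scaled to a common library total, here with edgeR's trimmed mean of M-values, TMM). The platelet marker Itga2b, which encodes CD41, was not above 34.7 CPM in any library. In the libraries labelled Hdac2 ECKO, Hdac2 stood at 57.5, 85.0 and 87.9 CPM, beside 84.4, 68.2 and 96.1 CPM in the MCAO ipsilateral libraries, so the ranges overlapped. In the libraries labelled Ezh2 ECKO, Ezh2 stood at 12.0, 19.7 and 8.41 CPM, all above the 4.44, 7.02 and 7.84 CPM of the MCAO ipsilateral libraries. The labels do not name the floxed exons and a gene-level count does not separate them, so these values do not check the deletion. MCAO contralateral replicate 1 and Ezh2 ECKO replicate 2 stood apart from the rest, with the lowest median correlations with the other libraries (0.745 and 0.758) and the highest summed level of 1466 olfactory and vomeronasal receptor genes, which are normally active in sensory tissue (1529 and 1561 CPM).

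Per kilobase of gene model, Thbd was the most abundant member, at 63.5 ± 18.4 CPM per kb over the 18 libraries (SD), and it exceeded Pros1, the next, in 18 of 18. Pros1 (31.0 ± 8.51) and Plat (28.6 ± 12.3 CPM per kb) did not separate, with Pros1 higher in 11 of 18 libraries. Procr (9.99 ± 5.02), Vwf (9.93 ± 2.97) and Tfpi (7.96 ± 2.41 CPM per kb) followed, with Procr above Vwf in 8 of 18 libraries and Vwf above Tfpi in 12 of 18, so that their order was not fixed. F5, at 2.84 ± 1.46 CPM per kb, was below Tfpi in 17 of 18 libraries and above F3 in 18 of 18. F3 (0.252 ± 0.511) and Plau (0.0727 ± 0.0917 CPM per kb) were lowest, with 5 libraries each at 0. All 9 passed the filter of 10 counts in 3 libraries, F3 with 7 such libraries and Plau with 5. By this level Thbd lay above 94.6% of the genes tested, Tfpi above 76.3%, F3 above 31.0% and Plau above 17.3%.

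The gene models of the members, in the GRCm38 build, lie at chr2:148404466-148408188 (Thbd, minus strand), chr2:155751117-155755471 (Procr, plus), chr16:62854307-62929346 (Pros1, plus), chr2:84432855-84476775 (Tfpi, minus), chr8:22757727-22782844 (Plat, plus), chr14:20836660-20843385 (Plau, plus), chr3:121723537-121735048 (F3, plus), chr6:125546774-125686679 (Vwf, plus) and chr1:164151838-164220277 (F5, plus). For 4 members the 150 bases before the start of the deposited gene model are shown, from RefSeq's promoter table for GRCm38.p6. Entries were found there for these and F5, and none for Vwf, Thbd, Plat and Plau, so the choice was limited by what was available. Between MCAO and sham libraries Procr did not overlap on either side and Tfpi not on the contralateral one. Pros1 hardly differed, and F3 was scattered. Capitals mark matches, on either strand, to an Sp/KLF box (GGGCGG), an AP-1 site (TGANTCA), a STAT site (TTCNNNGAA) or an ETS site (CCGGAAG).
Procr (chr2:155750967-155751116, plus strand): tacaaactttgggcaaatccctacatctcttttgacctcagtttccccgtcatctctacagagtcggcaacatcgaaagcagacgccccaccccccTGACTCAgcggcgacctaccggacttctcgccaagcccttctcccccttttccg
Tfpi (chr2:84476776-84476925, minus strand): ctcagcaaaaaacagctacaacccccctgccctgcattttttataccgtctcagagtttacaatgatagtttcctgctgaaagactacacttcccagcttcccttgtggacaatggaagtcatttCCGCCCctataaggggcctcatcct
Pros1 (chr16:62854157-62854306, plus strand): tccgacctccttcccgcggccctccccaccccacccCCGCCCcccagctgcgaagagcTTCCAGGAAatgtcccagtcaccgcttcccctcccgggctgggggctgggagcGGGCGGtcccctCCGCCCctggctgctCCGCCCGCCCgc
F3 (chr3:121723387-121723536, plus strand): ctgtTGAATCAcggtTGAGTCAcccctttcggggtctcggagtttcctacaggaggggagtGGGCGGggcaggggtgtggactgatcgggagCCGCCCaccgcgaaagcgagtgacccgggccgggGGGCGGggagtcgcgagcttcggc

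Procr held 1 AP-1 match, 54 bases before the gene start, and no match to the other motifs. The RefSeq start of Procr lies downstream of the deposited start, at 155751217. The AP-1 match of Procr is therefore not wholly within the 150 bases before the RefSeq start. The percentages below were counted in windows before RefSeq starts, so they are not a like comparison for this match. F3 held 2 AP-1 matches, at 146 and 135 bases, and 3 Sp/KLF boxes. Pros1 held 5 Sp/KLF boxes, of which the pair nearest the start overlap, and 1 STAT match at 92 bases. Tfpi held 1 Sp/KLF box at 25 bases, and the same stretch of F5 held none of these motifs. Among 32851 RefSeq windows of 150 bases before a start site, 28.6% held the Sp/KLF box, 4.24% the AP-1 site, 4.09% the STAT site and 5.52% the ETS site. A match describes letters and is not a bound site.

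MCAO was compared with sham surgery on each side to ask what the occlusion changes in cortical endothelium. A gene was called when its Benjamini-Hochberg adjusted p over the 17094 genes tested was under 0.05 in edgeR's quasi-likelihood test. On the ipsilateral side 0 of the 9 members were called, against 0% of all genes, and DESeq2 called 0 members. At an unadjusted p under 0.05 there were 2 members, Procr higher and Plau lower in MCAO, against 7.08% of all genes. The 3 MCAO values lay wholly above or below the 3 sham values for the same 2 members, against 27.7% of all genes. The median log2 fold change was 0.00 over the members and -0.09 over all genes tested.

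Procr, the receptor that holds protein C for activation, was the member whose MCAO and sham libraries did not overlap on either side. It stood at 16.8, 9.39 and 6.42 CPM in the sham ipsilateral libraries and at 23.3, 37.0 and 28.5 CPM in the MCAO ipsilateral ones. Contralateral values were 6.31, 14.0 and 16.5 CPM in sham and 35.6, 19.2 and 38.0 CPM in MCAO. All 6 MCAO libraries thus lay above all 6 sham libraries. The log2 fold change was 1.45 ± 0.54 (SE) on the ipsilateral side (adjusted p = 0.630) and 1.33 ± 0.53 on the contralateral side (adjusted p = 0.920). The test of the difference between the sides gave 0.11 ± 0.74 (adjusted p = 0.989).

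Over both sides together, 0 members were called against 0.152% of all genes. An unadjusted p under 0.05 was reached by 2 members, Procr and Tfpi, against 9.09% of all genes, and only Procr did not overlap between the 6 MCAO and 6 sham libraries, against 1.42% of all genes. Procr averaged 30.3 CPM in MCAO and 11.6 CPM in sham, a log2 fold change of 1.39 ± 0.38 (adjusted p = 0.161). DESeq2 gave 1.45 with an adjusted p of 0.00741 and called it, among 337 of the 17094 genes that it called here. Leaving out any 1 library gave 1.24 to 1.62 in edgeR, none called. Both fits take the 12 libraries as independent. Summing same-numbered ipsilateral and contralateral libraries into 1, edgeR gave 1.35 (adjusted p = 0.9999) and called 0 genes, beside 26 without summing. The summed endothelial markers moved in the same direction on the ipsilateral side, from 11371 to 14100 CPM in sham to 17419 to 27653 CPM in MCAO, and overlapped on the contralateral side, at 13091 to 22059 CPM in sham and 12139 to 26552 CPM in MCAO. All 12 were in the table and none was at 0 throughout a group. Single markers did not all follow the ipsilateral sum. Cdh5 was lower in MCAO, at 221 to 255 CPM beside 259 to 311 CPM in sham, and Pecam1 and Cldn5 overlapped. The part of the endothelial markers in the Procr values was not tested. In bulk samples, fewer cells of a type and less RNA per cell cannot be told apart.

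**Figure D1:**
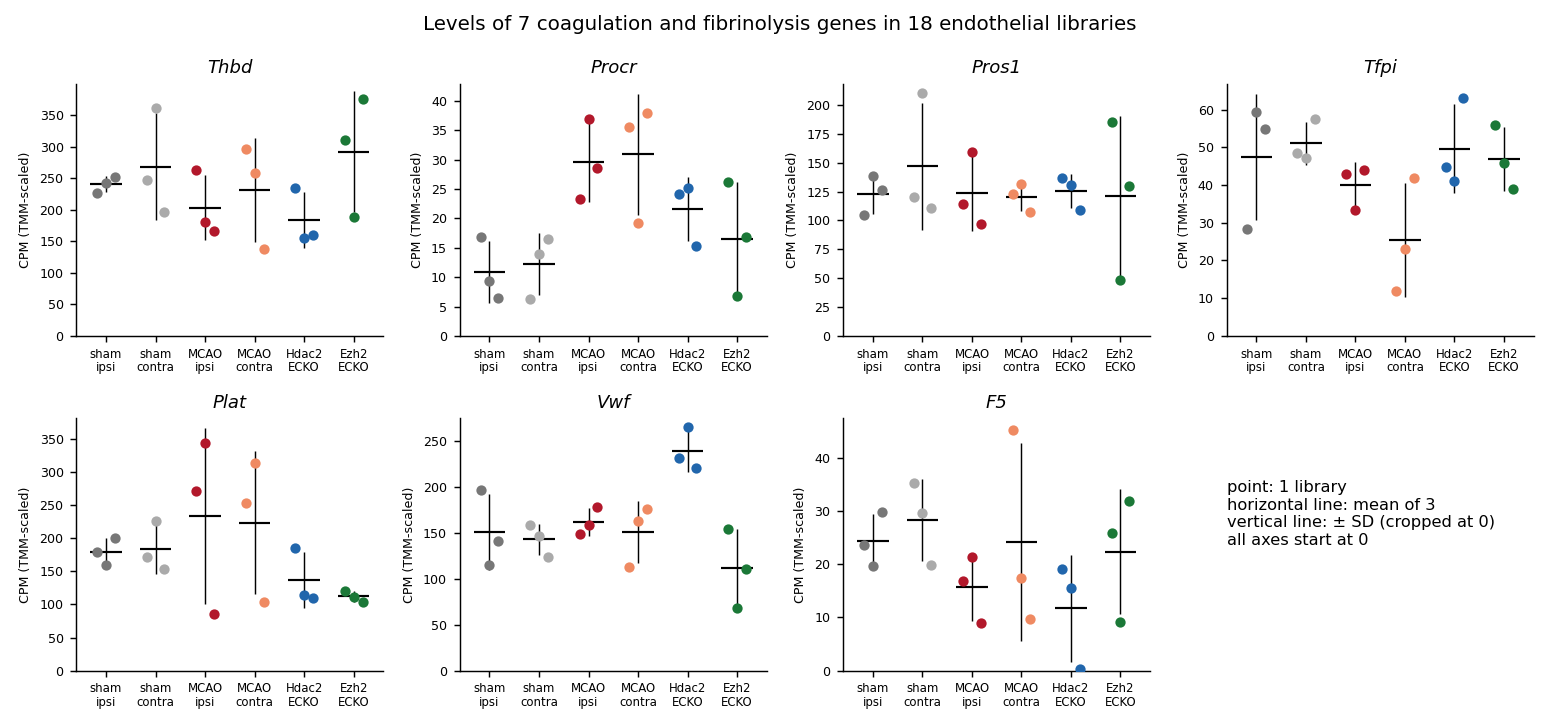
Levels of 7 members in CPM (vertical axes, each starting at 0) in the 6 groups of 3 libraries. Points are libraries, horizontal lines are means and vertical lines are ± SD. Procr lies between 19.2 and 38.0 CPM in the MCAO libraries and between 6.31 and 16.8 CPM in the sham libraries, and Vwf lies between 221 and 265 CPM in the libraries labelled Hdac2 ECKO.

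On the contralateral side 0 members were called by edgeR, against 0% of all genes, and DESeq2 called 0. There were 2 members at an unadjusted p under 0.05, Procr higher and Tfpi lower in MCAO, against 4.41% of all genes. The same 2 members did not overlap between the groups, against 9.65% of all genes. The members' median log2 fold change was 0.08, beside 0.17 over all genes. The test of whether the MCAO-to-sham difference itself differed between the sides called 0 members against 0% of all genes, with 0 at an unadjusted p under 0.05 against 3.38% of all genes.

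Tfpi, the inhibitor of the tissue factor complex, stood at 48.5, 47.2 and 57.6 CPM in the sham contralateral libraries and at 11.9, 23.0 and 41.8 CPM in the MCAO contralateral ones. Each of the 3 MCAO values was below the lowest sham value, and they spread over a wider range. The 10 markers of pericytes and smooth muscle summed to 200, 111 and 103 CPM in the sham and 17.6, 45.7 and 68.1 CPM in the MCAO libraries of this side, also without overlap, with all 10 in the table and none at 0 throughout a group. On the ipsilateral side, where Tfpi overlapped, they summed to 106 to 165 CPM in sham and 40.2 to 104 CPM in MCAO libraries, and their part in the Tfpi values was not tested. The log2 fold change was -0.999 ± 0.41 (adjusted p = 0.920). Without MCAO contralateral replicate 1, the library with raised receptor-gene levels, it was -0.64 (adjusted p = 0.669), and without replicate 3 of that group it was -1.55. Ipsilateral values overlapped, at 28.3, 59.3 and 54.8 CPM in sham and 43.1, 33.4 and 44.0 CPM in MCAO, with a log2 fold change of -0.24 ± 0.41. Over both sides it was -0.62 ± 0.29 (adjusted p = 0.522).

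Thbd, the thrombin receptor of the protein C pathway, stood at 227, 242 and 252 CPM in sham ipsilateral and 263, 181 and 166 CPM in MCAO ipsilateral libraries. Its contralateral values were 247, 361 and 196 CPM in sham and 296, 259 and 138 CPM in MCAO. The groups overlapped on both sides, with log2 fold changes of -0.24 ± 0.35 and -0.21 ± 0.35. Pros1, the cofactor of activated protein C, averaged 123 ± 17.4 CPM on the ipsilateral side of sham and 123 ± 32.4 CPM on that of MCAO (SD, n = 3). Its log2 fold change between MCAO and sham was 0.00 ± 0.38 on the ipsilateral and -0.29 ± 0.38 on the contralateral side.

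Plat, which encodes tissue-type plasminogen activator, stood at 180, 159 and 201 CPM in sham ipsilateral and at 271, 345 and 86.2 CPM in MCAO ipsilateral libraries. Contralateral values were 172, 227 and 154 CPM in sham and 253, 314 and 104 CPM in MCAO. On each side, replicates 1 and 2 of MCAO lay above every sham library and replicate 3 lay below them all. The log2 fold changes were 0.38 ± 0.42 (adjusted p = 0.839) and 0.28 ± 0.42 (adjusted p = 0.933). MCAO replicate 3 also had the lowest MCAO value on both sides for Thbd and for F5. F5, the cofactor that speeds thrombin formation, stood at 16.8, 21.4 and 8.92 CPM in MCAO ipsilateral and 45.1, 17.5 and 9.77 CPM in MCAO contralateral libraries, of which 1 lay within the sham range of 19.6 to 35.3 CPM, 4 below and 1 above it. Its log2 fold changes from sham were -0.63 ± 0.80 and -0.23 ± 0.79.

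Vwf, the platelet-tethering protein stored in Weibel-Palade bodies, averaged 151 ± 41.6 and 143 ± 17.2 CPM on the ipsilateral and contralateral sides of sham, and 162 ± 14.7 and 151 ± 33.5 CPM on those of MCAO (SD, n = 3 each). The log2 fold changes of MCAO from sham were 0.10 ± 0.31 and 0.08 ± 0.31. Between MCAO ipsilateral and MCAO contralateral libraries 0 members were called (0% of all genes, and 0 members by DESeq2), 1 reached an unadjusted p under 0.05 (Plau, against 3.08% of all genes) and 0 did not overlap (against 5.37%). Between the 2 sham sides the counts were 0 called (0% of all genes, and 0 by DESeq2), 0 at an unadjusted p under 0.05 (1.85%) and 0 without overlap (15.4%). On the ipsilateral against the contralateral side of MCAO, the log2 fold changes of Thbd, Procr, Plat, Vwf and Pros1 lay between -0.18 and 0.10, with Tfpi at 0.65 ± 0.41 and F5 at -0.62 ± 0.80. In sham they lay between -0.26 (Pros1) and 0.08 (Vwf) for these 7 members.

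Plau and, outside a few libraries, F3 lay near or below the level of the receptor genes, and their values are given as counts. F3 was well above it in MCAO ipsilateral replicate 2, at 1.19 CPM per kb beside 0.0284 for the mean receptor gene. In MCAO contralateral replicate 1 the values were 1.96 and 0.286 CPM per kb. On the ipsilateral side F3 had 2, 2 and 30 counts after sham surgery and 0, 136 and 22 after MCAO. On the contralateral side it had 0, 12 and 0 counts after sham surgery and 158, 6 and 0 after MCAO. It had 0, 4 and 2 counts in the libraries labelled Hdac2 ECKO and 2, 30 and 16 in those labelled Ezh2 ECKO. Most F3 counts of each MCAO group thus came from 1 library, and the log2 fold change from sham over both sides was 2.82 ± 1.50 (adjusted p = 0.609). Astrocytes are a known source of tissue factor in brain. The 8 astrocyte markers summed to 30.9 to 92.8 CPM over all libraries, with Aldh1l1 at 0 throughout sham contralateral, and their part in the F3 counts was not tested.

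Plau had 2, 4 and 4 counts on the ipsilateral side of sham and 0 in all 3 libraries on that of MCAO. Contralateral libraries had 24, 0 and 1 counts for sham and 21, 4 and 0 for MCAO. It had 2, 8 and 10 counts in the libraries labelled Hdac2 ECKO and 2, 12 and 17 in those labelled Ezh2 ECKO. Every comparison in which Plau reached an unadjusted p under 0.05 was against the MCAO ipsilateral group, where no library had a count. Contralateral counts came mostly from replicate 1 in both groups. Per kilobase, Plau exceeded the mean of the receptor genes in 5 of 18 libraries and F3 in 8 of 18, and in the remaining libraries they lay at or below it. F5 exceeded it in 17 of 18 and the other 6 members in all 18.

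**Figure D2:**
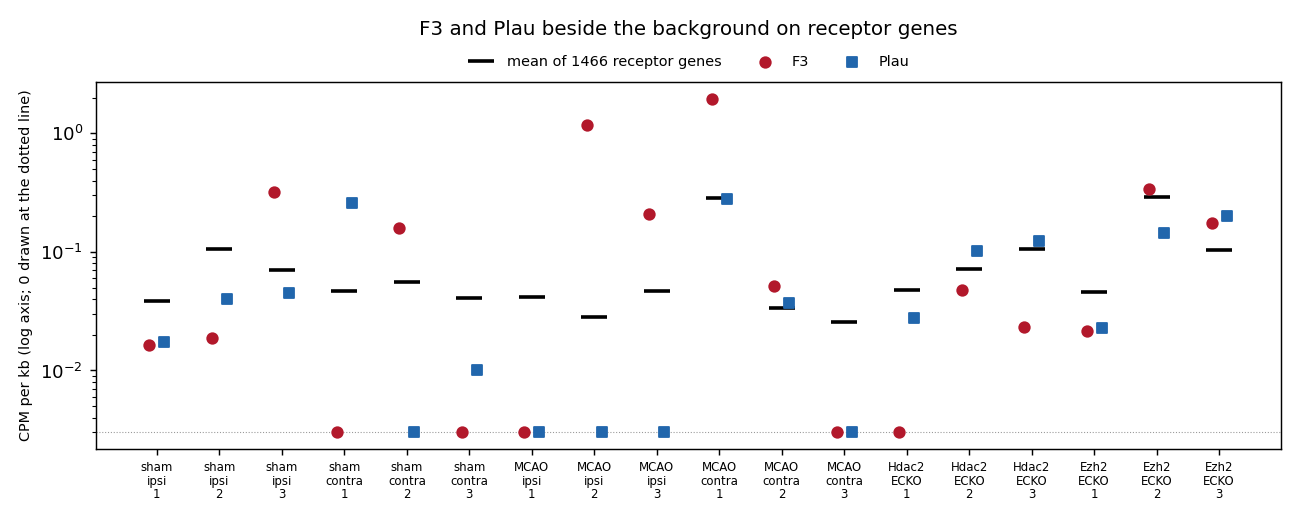
F3 (circles) and Plau (squares) in each of the 18 libraries, in CPM per kb on a log axis with 0 drawn at the dotted line, beside the mean of 1466 receptor genes (black bars). Plau lies above the bar in 5 libraries and F3 in 8.

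The libraries labelled Hdac2 ECKO were compared with the MCAO ipsilateral libraries to ask what endothelial loss of the histone deacetylase Hdac2 changes after occlusion. None of the 9 members were called (0.0117% of all genes were), and DESeq2 called 0. An unadjusted p under 0.05 was reached by 1 member, Plau, against 9.85% of all genes, and 2 members did not overlap, Vwf and Plau, both higher, against 19.9% of all genes. The median log2 fold change was -0.15 over the members and 0.11 over all genes. This comparison and that of Ezh2 ECKO share their MCAO ipsilateral controls, which were also used in the comparison with sham.

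Vwf stood at 232, 265 and 221 CPM in the libraries labelled Hdac2 ECKO, above each of the other 15 libraries, of which the highest was 196 CPM. In the MCAO ipsilateral libraries it stood at 149, 159 and 178 CPM. The log2 fold change was 0.56 ± 0.32 (adjusted p = 0.578). Plat stood at 185, 114 and 110 CPM, within the MCAO ipsilateral range, with a log2 fold change of -0.77 ± 0.42 (adjusted p = 0.562). Procr stood at 24.2, 25.2 and 15.3 CPM, with -0.46 ± 0.53. Thbd (-0.15 ± 0.35), Pros1 (0.03 ± 0.38) and Tfpi (0.31 ± 0.41) also overlapped the controls. F5 stood at 19.2, 15.6 and 0.353 CPM, the last of which is 12 counts in replicate 3, while in all other libraries F5 was at least 8.92 CPM.

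Of the summed markers of vessel type and of platelets, the arterial sum lay apart from the controls in the libraries labelled Hdac2 ECKO. The venous and platelet sums overlapped them. The 6 arterial markers summed to 922 to 1057 CPM in the libraries labelled Hdac2 ECKO, 282 to 457 CPM in MCAO ipsilateral and 343 to 477 CPM in Ezh2 ECKO libraries, with all 6 in the table and none at 0 throughout a group. The 5 venous markers summed to 456 to 501, 365 to 664 and 244 to 352 CPM in the same order, again with none at 0 throughout a group. Of these 5, Nr2f2 by itself did not overlap the controls, at 31.0 to 51.1 CPM in Hdac2 ECKO and 11.3 to 15.0 CPM in MCAO ipsilateral libraries. Nr2f2 stood at 19.5 to 34.2 CPM in Ezh2 ECKO libraries. It reached 35.8 CPM in sham ipsilateral and 38.8 CPM in sham contralateral libraries, so both sham groups overlapped Hdac2 ECKO. The other venous markers are given only in the sum. The 10 platelet markers, from cells that also carry von Willebrand factor and factor V, summed to 8.23 to 83.2 CPM in Hdac2 ECKO, 36.4 to 39.6 CPM in MCAO ipsilateral and 19.1 to 30.2 CPM in Ezh2 ECKO libraries. Among them Treml1 was at 0 throughout Hdac2 ECKO and Gp5 throughout MCAO ipsilateral. The lowest platelet sum, 8.23 CPM, was in Hdac2 ECKO replicate 3, the library with 12 counts of F5 and 221 CPM of Vwf. The part of these markers in the Vwf and F5 values was not tested.

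The libraries labelled Ezh2 ECKO, for the histone methyltransferase Ezh2, were compared with the same controls. Here 0 members were called, against 1.46% of all genes, and DESeq2 called 0. An unadjusted p under 0.05 was reached by 2 members, Plau higher and Plat lower, against 19.2% of all genes, and only Plau did not overlap between the groups, against 29% of all genes. The median log2 fold change was -0.03 over the members and 0.17 over all genes.

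Plat stood at 121, 111 and 104 CPM in the libraries labelled Ezh2 ECKO, the narrowest spread of any group. The values lay between the lowest MCAO ipsilateral library (86.2 CPM) and the other two (271 and 345 CPM). The log2 fold change was -1.06 ± 0.42 (adjusted p = 0.180). Without MCAO ipsilateral replicate 2 it was -0.67 (adjusted p = 0.598), and without replicate 3 it was -1.50 (adjusted p = 0.0519). Procr stood at 26.1, 6.77 and 16.8 CPM (-0.84 ± 0.53), Thbd at 311, 188 and 376 CPM (0.52 ± 0.35) and Vwf at 155, 68.6 and 111 CPM (-0.54 ± 0.32, adjusted p = 0.342), each overlapping the controls. Ezh2 ECKO replicate 2, which stood apart from the rest, had the lowest value of the 3 for these 3 members and for Pros1 (186, 48.2 and 130 CPM). Tfpi (0.23 ± 0.41), Pros1 (-0.03 ± 0.38) and F5 (0.51 ± 0.80) overlapped too.

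Hdac2 ECKO and Ezh2 ECKO libraries were compared directly, without the shared controls. Again 0 members were called, against 0.123% of all genes. Only Vwf reached an unadjusted p under 0.05 (11.2% of all genes did), and only Vwf did not overlap (12.1% of all genes). It was higher in the libraries labelled Hdac2 ECKO, 239 ± 23.0 CPM against 111 ± 43.0 CPM (SD, n = 3). The log2 fold change was 1.10 ± 0.32 (adjusted p = 0.170). DESeq2 gave 1.03 with an adjusted p of 0.00997 and called it, among 659 of the 17094 genes that it called here. Leaving out any 1 library gave 0.84 to 1.41. Thbd was at -0.67 ± 0.35 (adjusted p = 0.485) and F5 at -0.93 ± 0.80, while Procr, Pros1, Tfpi and Plat lay between 0.05 and 0.38. F3 and Plau overlapped too, by the counts given above. The members' median was 0.05 and that of all genes -0.15.

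**Figure D3:**
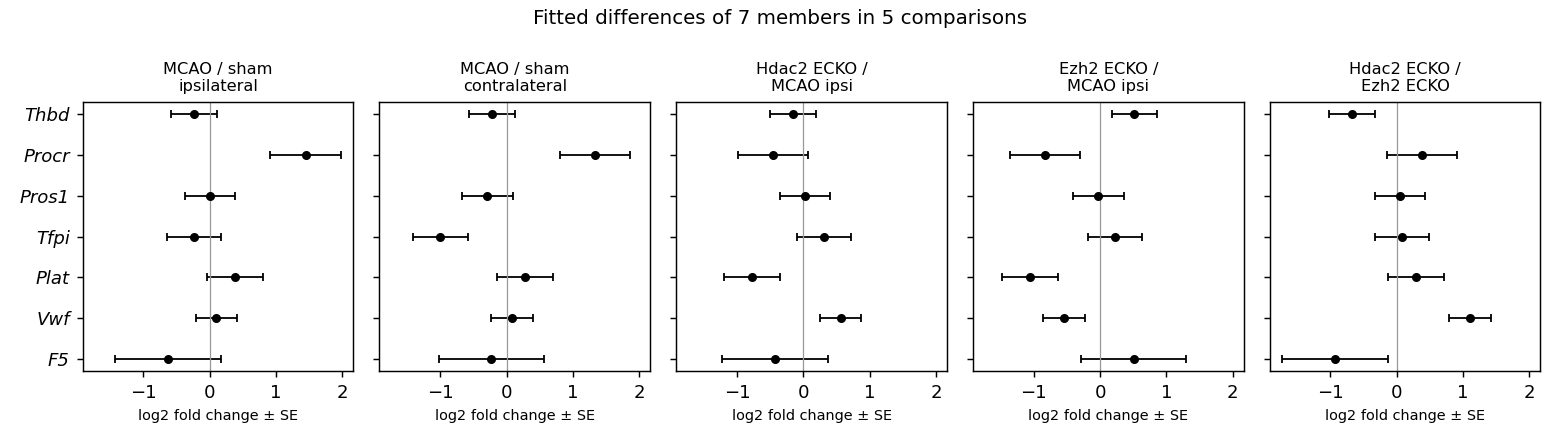
Fitted log2 fold changes (horizontal axis, points) with ± SE (bars) of the 7 members other than F3 and Plau in 5 comparisons. Procr lies at 1.45 and 1.33 for MCAO against sham, Tfpi at -0.999 on the contralateral side, Plat at -1.06 for Ezh2 ECKO, and Vwf at 1.10 for Hdac2 ECKO against Ezh2 ECKO, none of them called.

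The partners of the members were followed in 7 lists of 56 genes, of which 45 could be tested. Most of the other clotting proteins are made in liver: the coagulation factors and fibrinogen chains were low (11 of 15 tested, none called in any comparison), with F8, the cofactor missing in haemophilia A, the highest at a mean of 2.60 and a maximum of 30.1 CPM. Near 0 were protein C (Proc, at most 0.188 CPM), plasminogen (Plg, at most 0.628 CPM) and its plasma inhibitor (Serpinf2, at most 0.132 CPM). Only 2 of the 45 were called in any comparison, both annexins and both lower in the libraries labelled Ezh2 ECKO than in MCAO ipsilateral libraries, where 1.46% of all genes were called.

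Anxa2, whose protein forms the cell-surface dock for plasminogen and tissue-type plasminogen activator, fell from 463, 596 and 270 CPM to 106, 93.9 and 110 CPM. The log2 fold change was -2.10 ± 0.48 (adjusted p = 0.0373). Anxa5, which binds exposed phosphatidylserine and shields it from clotting factors, fell from 522, 691 and 291 CPM to 205, 113 and 131 CPM, a log2 fold change of -1.74 ± 0.41 (adjusted p = 0.0402). In both genes no library of one group reached the other. Neither call held when MCAO ipsilateral replicate 1 or 2 was left out (Anxa2 adjusted p = 0.0978 and 0.191, Anxa5 0.105 and 0.230) or Ezh2 ECKO replicate 2 or 3 (Anxa2 0.0980 and 0.118, Anxa5 0.110 and 0.138). The Anxa2 call was also lost without Ezh2 ECKO replicate 1 (0.0623). Neither gene was called with the receptor-gene level as a covariate, at -1.33 and -1.29 (adjusted p = 0.167 and 0.134).

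The other genes of the plasminogen list did not pass the test in any comparison, and 3 of them, Plaur, Serpine2 and S100a10, are named after their values were seen. The urokinase receptor Plaur stood at 11.0, 5.46 and 6.58 CPM in sham ipsilateral and 56.1, 82.5 and 16.8 CPM in MCAO ipsilateral libraries, with a log2 fold change of 2.75 ± 0.91 (adjusted p = 0.562). Its ligand Plau was near background in the same libraries. Serpine2, a secreted inhibitor of thrombin and of plasminogen activators, stood at 22.3, 54.8 and 41.6 CPM in sham ipsilateral and 165, 319 and 38.1 CPM in MCAO ipsilateral libraries (2.14 ± 0.62, adjusted p = 0.509). Replicate 3 was again the lowest MCAO library on this side for Plaur, Serpine2, Anxa2 and Anxa5, as it was for Plat.

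Over both sides, log2 fold changes from sham were 2.14 for Plaur (adjusted p = 0.204), 1.90 for Serpine2 (adjusted p = 0.0803) and 1.04 for Anxa2 (adjusted p = 0.233). DESeq2 called Plaur (adjusted p = 0.0176) and Serpine2 (adjusted p = 0.00452), where it called 337 of 17094 genes. Against the shared MCAO ipsilateral controls, the same 3 genes stood at -2.90, -2.38 and -1.23 in the libraries labelled Hdac2 ECKO and at -2.19, -1.75 and -2.10 in those labelled Ezh2 ECKO. DESeq2 called Plaur and Serpine2 in Hdac2 ECKO too (adjusted p = 0.0404 and 0.0298), where it called 244 of 17094 genes. S100a10, the partner chain of Anxa2, was at -1.59 ± 0.43 in Ezh2 ECKO (adjusted p = 0.0594) and was called there by DESeq2 (adjusted p = 0.0249). It was also called, higher, in Hdac2 ECKO against Ezh2 ECKO (DESeq2 adjusted p = 0.00409). Of 17094 genes, DESeq2 called 1642 in the former comparison and 659 in the latter. Microglia and leukocytes also use the urokinase receptor. Their 10 markers summed to 38.1 to 45.4 CPM in sham ipsilateral and 82.0 to 88.8 CPM in MCAO ipsilateral libraries. They summed to 67.3 to 84.3 CPM in Hdac2 ECKO and 57.3 to 63.8 CPM in Ezh2 ECKO libraries. Contralateral sums overlapped, at 48.5 to 69.3 CPM in sham and 46.1 to 93.9 CPM in MCAO, with C1qa at 0 throughout sham. Ptprc, the CD45 gene, went the other way ipsilaterally, at 0.936 to 2.76 CPM in sham and 0.309 to 0.813 CPM in MCAO. The other markers are given only in the sum. The part of these markers in the values above was not tested.

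**Figure D4:**
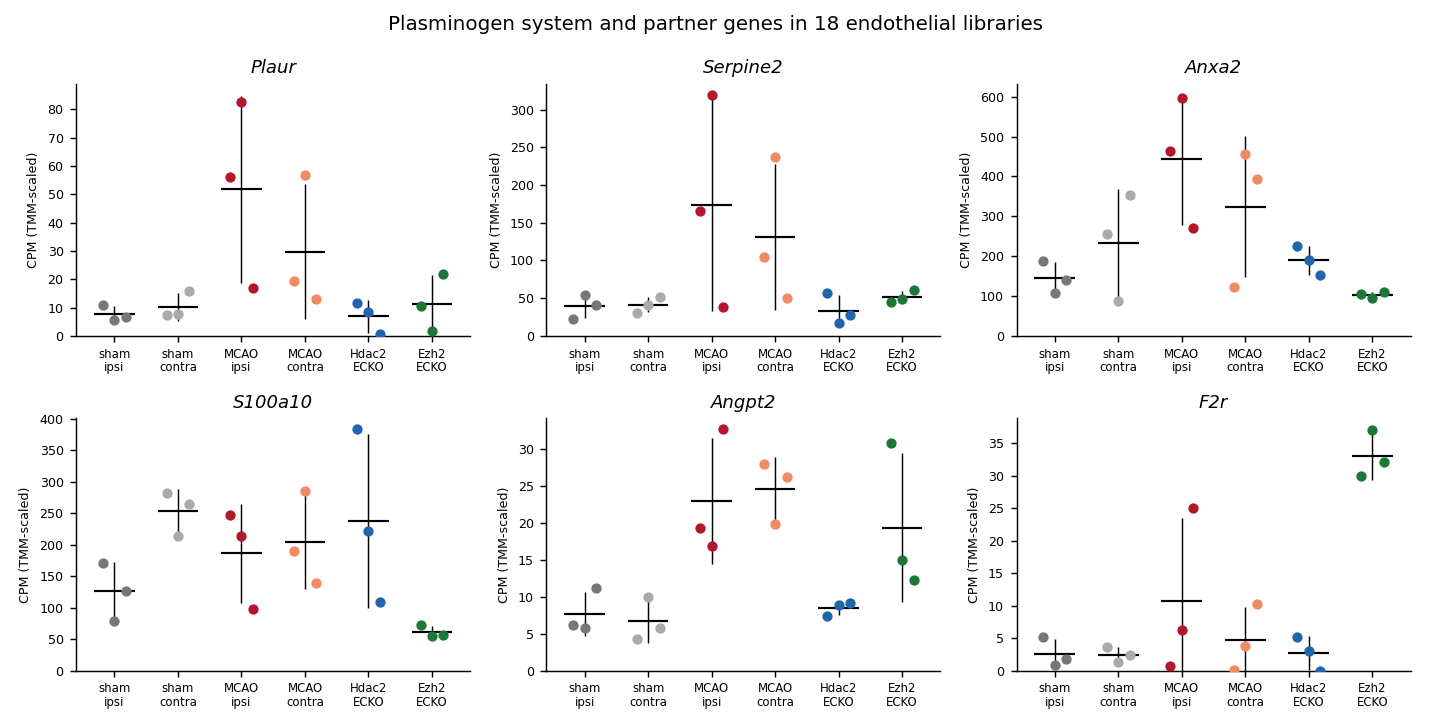
Levels in CPM (vertical axes from 0) of 6 genes that act with the members, in 18 libraries (points), with means (horizontal lines) and ± SD (vertical lines). Plaur and Serpine2 reach 82.5 and 319 CPM in MCAO ipsilateral libraries, and Anxa2 lies between 93.9 and 110 CPM in the libraries labelled Ezh2 ECKO.

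In the remaining lists, Angpt2, an angiopoietin stored with von Willebrand factor in Weibel-Palade bodies, averaged 7.66 ± 3.01 CPM ipsilaterally after sham surgery, beside 23.0 ± 8.53 CPM after MCAO (SD, n = 3). Over both sides its log2 fold change was 1.73 ± 0.36 (adjusted p = 0.0616). It was called under 7 of 22 settings, among them DESeq2 (adjusted p = 3.17e-05), which also called it on the contralateral side (adjusted p = 0.0134). Of 17094 genes, DESeq2 called 337 over both sides and 26 on the contralateral side. Angpt2 was at -1.43 ± 0.51 in Hdac2 ECKO against the same MCAO ipsilateral libraries (adjusted p = 0.417), where Vwf itself was at 0.56. The thrombin receptor F2r ranged from 29.9 to 37.0 CPM across the Ezh2 ECKO libraries, beside 0 to 5.15 CPM across the Hdac2 ECKO libraries, without overlap (-3.61 ± 1.41, adjusted p = 0.329). In the MCAO ipsilateral libraries F2r was spread widely, at 0.729, 6.27 and 25.1 CPM. Vkorc1, the reductase that recycles vitamin K for the carboxylation of clotting factors and protein S, averaged 138 ± 18.2 CPM in MCAO ipsilateral and 44.7 ± 22.8 CPM in Ezh2 ECKO libraries (-1.62 ± 0.47, adjusted p = 0.0708, and 0.0189 in DESeq2, which called it among 1642 of 17094 genes). Its sham libraries averaged 62.3 ± 11.5 CPM ipsilaterally and 133 ± 20.6 CPM contralaterally. Axl, a receptor of the protein S relative Gas6, was at -3.84 ± 1.52 in Hdac2 ECKO (adjusted p = 0.440). The groups overlapped, at 2.77, 0.0602 and 0.235 CPM in Hdac2 ECKO and 0.365, 14.6 and 28.9 CPM in MCAO ipsilateral libraries. F11, the named coagulation factor, was at most 1.04 CPM in any library.

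At an unadjusted p under 0.05, the lists held 6 of 45 genes, all higher, in MCAO ipsilateral libraries against sham (7.08% of all genes passed), 2 higher and 1 lower on the contralateral side (4.41%), and 5 higher and 0 lower over both sides (9.09%). They held 6 lower and 0 higher in Hdac2 ECKO (9.85%), and 6 lower and 0 higher in Ezh2 ECKO (19.2%), against the shared MCAO controls. Between Hdac2 ECKO and Ezh2 ECKO libraries they held 4 higher and 5 lower (11.2%). The lists' median log2 fold changes were 0.32, 0.64, 0.39, -0.32, -0.20 and -0.36 in these comparisons, beside -0.09, 0.17, 0.06, 0.11, 0.17 and -0.15 for all genes tested. Between the ipsilateral and contralateral sides of sham the lists held 2 genes lower and 0 higher (1.85%), with a median of -0.05 beside 0.07 for all genes. S100a10 and Vkorc1 were at -1.01 and -1.09 there, each without overlap between the sides and without occlusion or deletion. Red cell genes are a further difference between the groups: 5 globin-related markers summed to 70.1 to 671 CPM across Ezh2 ECKO libraries, beside 19216 to 297753 CPM in all others. The highest sums, 297753 and 251274 CPM, were in Hdac2 ECKO replicates 1 and 2, with 49278 CPM in replicate 3. MCAO ipsilateral libraries had 38255 to 65424 CPM. The endothelial markers summed to 8014 to 12338 CPM in Ezh2 ECKO and 12157 to 16996 CPM in Hdac2 ECKO libraries. Both lay below the 17419 to 27653 CPM of the MCAO ipsilateral controls. In Ezh2 ECKO, Cldn5 and Pecam1 were also lower without overlap, while Cdh5 overlapped, at 220 to 413 CPM beside 221 to 255 CPM. In Hdac2 ECKO, Cldn5 was lower without overlap and Pecam1 overlapped. Cdh5 was higher there without overlap, at 290 to 542 CPM. The part of the red cell or endothelial markers in the lower Anxa2, Anxa5, Plaur, Serpine2 and Plat values, or in the Vwf values, was not tested.

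For each member, the genes whose pattern over the 18 libraries was most like it were taken from 7807 genes whose mean level reached 10 CPM, by Spearman's rho of log2(CPM + 1). The nearest gene was Hexim1 for Vwf (0.895), Tsc22d3 for Plat (0.897), Slfn5 for Thbd (0.891), Ch25h for Procr (0.841), Clasp1 for F5 (0.831), Cwc22 for Plau (0.829), Tmed8 for Tfpi (0.789), Tmtc2 for Pros1 (0.787) and Mxi1 for F3 (0.752). The next were Rangrf (0.812), Pakap (0.878), Grb10 (0.876), Tgif1 (0.833), Riox2 (0.792), AW549877 (0.810), Arap2 (0.775), 1810013L24Rik (0.783) and Sec23b (0.710) in the same order. All points of such a correlation share library depth and scaling. Plau and F3 had 5 libraries each at 0 and exceeded the mean receptor gene in only 5 and 8 of 18 libraries. Their correlations thus largely rank values near background. Ch25h, which encodes cholesterol 25-hydroxylase, stood at 4.72 to 16.9 CPM in the 6 sham libraries and 31.6 to 118 CPM in the 6 MCAO libraries, which like those of Procr did not overlap.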

How the data were processed

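RNA of sorted endothelial cells was sequenced in 18 mouse libraries, in 6 groups of 3 taken from the labels. The submitters' processing notes name FastQC, cutadapt, STAR, featureCounts and DESeq2 and the build mm10. Their versions, the annotation and the strand setting are not given in the sources used here. The deposited table is called normalized, but its values are whole-number counts whose totals differ between libraries, so they were treated as unscaled counts per gene. Of counts from 1 to 20, 77.3% to 89.4% per library were even, so both mates of a pair appear to be counted. No column was left without a sample (0).

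Counts were tested with edgeR 4.0.16 in R 4.3.3 (TMM scaling, quasi-likelihood F-test, 1 mean per group, a filter of 10 counts in 3 libraries or more, Benjamini-Hochberg adjustment). DESeq2 1.42.0 and voom in limma 3.58.1 were alternatives, with another scaling, other filters, halved counts, a replicate block, a background covariate, fewer groups and left-out libraries. The design allowed for normalized values or counts, and the count branch was applied. The code was tested on simulated data. Log2 fold changes are given ± SE. Gene positions were matched by symbol to GENCODE M21 for 21442 genes.

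All 9 members were tested in every comparison. Of each partner list, genes called anywhere are named, or else the 1 gene with the smallest p, and for each member the 2 genes most like it. The members and lists were chosen with earlier results of these data known. The values of a further partner gene are not reported here.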

Additional observations from a re-analysis of the deposited data

How the results depend on the processing

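The number of members called was 0 in edgeR in each of the 9 comparisons and stayed 0 under every alternative run except DESeq2, which called 1 (Procr) for MCAO against sham over both sides and 1 (Vwf) for Hdac2 ECKO against Ezh2 ECKO. Leaving out each library in turn gave 0 to 0 members. Of the 81 member values, 45 changed sign under at least 1 alternative, none of them among the 11 with an unadjusted p under 0.05. Apart from F3 and Plau, the largest such value was 0.62 in size. With RLE scaling the median of all genes moved by 0.19 for Ezh2 ECKO against MCAO, by -0.19 for the difference between sides, by -0.16 between MCAO sides, by 0.13 for the contralateral side and by -0.11 for Hdac2 ECKO against Ezh2 ECKO. With a replicate block, Procr over both sides was 1.39 (adjusted p = 0.246) and 0 members were called. Same-numbered libraries of the 2 sides correlated in their deviations from the group means at 0.38, 0.35 and -0.13 in sham and 0.29, 0.39 and 0.03 in MCAO. The best correlation of each ipsilateral library with a contralateral one of another number was 0.36, -0.22 and 0.12 in sham and -0.11, 0.22 and 0.15 in MCAO. The same number gave the higher value for replicates 1 and 2 and the lower for replicate 3 in both, so whether the numbers mark pairs is not settled. The replicate block took the genes called from 250 to 12 for Ezh2 ECKO, from 26 to 4 for MCAO over both sides, from 21 to 9 between the deletions and left 2 for Hdac2 ECKO, and ended the Anxa2 and Anxa5 calls (adjusted p = 0.0652 and 0.0706). DESeq2 called 1642, 337, 659 and 244 genes in these comparisons. Leaving out 1 library gave 5 to 298 (5 without MCAO ipsilateral replicate 1 or 2, 8 without Ezh2 ECKO replicate 3), 0 to 265 (265 without MCAO contralateral replicate 1), 9 to 73 and 0 to 18. The cause was not tested. A minimum of 50 counts left F3 and Plau untested, halved counts left out Plau, and fits of only the groups compared left out 1 or both. With 3 libraries a group, no edgeR difference of Procr, Tfpi, Plat or Vwf passed the adjusted threshold.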
